A study of Mus musculus with 8 samples.

Results

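The 10 genes described here encode the transcriptional regulators that set oxidative and fatty acid metabolism in muscle. They are the nuclear receptors Ppara, Pparg, Esrra and Esrrg, the coactivators Ppargc1a and Ppargc1b, the muscle regulator Perm1, the corepressors Nrip1 and Ncor1, and the mitochondrial transcription factor Tfam. They were chosen by gene name. Each name matched 1 row of the deposited table, which makes 10 of 54091 genes, and all 10 had enough reads to be tested. RNA came from white quadriceps, a muscle of fast glycolytic fibres, of 8 chow-fed male mice aged 11 to 14 weeks, taken in the morning. The 4 control animals had the genotype Loxp/Loxp, with no Cre named. The 4 Acot2 mKO animals carried CKM Cre, a recombinase under the promoter of muscle creatine kinase, and are labelled as lacking Acot2 in muscle. The groups therefore differed in both the recombinase and Acot2, and the effects of the Cre and of the deletion cannot be told apart.

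PPARs bind DNA together with a retinoid X receptor and are switched on by fatty acids and their derivatives. Ppara is known for genes of fatty acid oxidation, and Pparg is the master regulator of fat cells. The PGC-1 proteins bind no DNA themselves. They are recruited by PPARs and by the estrogen-related receptors (ERRs), which bind no known natural hormone, and together these raise genes of oxidative phosphorylation. Nrip1 (RIP140) and Ncor1 work against these receptors, Perm1 is induced by PGC-1 and the ERRs in muscle, and Tfam packages and transcribes the mitochondrial genome. Acot2, the deleted enzyme, is a thioesterase of the mitochondrial matrix that releases fatty acids from acyl-CoA.

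Libraries held 30415426 to 48834289 recovered reads, and every member had between 30 and 8643 reads in each library. Values are given as normalized reads, which are reads divided by the authors' factor for each library. Acot2 itself had 213, 149, 251 and 240.2 normalized reads in control replicates 1 to 4 and 43.8, 42.8, 53.7 and 48.9 in Acot2 mKO replicates 1 to 4, a log2 difference of -2.13 (adjusted p = 0.00096, limma), so the targeted gene matched the labels. Some libraries stood apart in marker genes of other cell and fibre types. Control replicates 2 and 3 had high fat cell genes. Acot2 mKO replicates 3 and 4 had high slow fibre genes, and Myh2, the myosin of oxidative fast fibres, was lowest in control replicate 2 (797 normalized reads) and highest in control replicate 3 (73690.0).

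Levels of the regulators in control muscle spanned 32.3-fold once divided by exon length. Perm1 was the most abundant, with 1279 ± 252 normalized reads per kb of exon (SD, n = 4), which placed it above 95.1% of 13185 expressed genes. Ncor1 followed at 481 ± 42.3, Esrra at 403 ± 46.6, Tfam at 324 ± 20.8, Ppargc1a at 191 ± 18.0 and Nrip1 at 138 ± 20.5 (each SD, n = 4). Ppargc1b had 73.6 ± 13.8, Esrrg 68.8 ± 38.7, Ppara 65.0 ± 20.6 and Pparg 39.6 ± 28.7, against a median of 71.9 over all expressed genes. Perm1 lay above Ncor1 in 8 of 8 libraries, and the steps from Tfam to Ppargc1a, from Ppargc1a to Nrip1 and from Nrip1 to Ppargc1b were also kept in 8 of 8, each with control ranges that did not overlap. Esrra lay above Tfam in 8 of 8 libraries, but their control ranges overlapped. Ncor1 was above Esrra in 6 of 8 and Ppargc1b above Esrrg in 4 of 8. Esrrg was above Ppara in 5 of 8 and Ppara above Pparg in 7 of 8. Control ranges overlapped in each of these pairs, so in control muscle these neighbours did not differ beyond the spread between animals. In Acot2 mKO muscle the ranges of Ppara (49.4 to 99.3 per kb) and Pparg (12.76 to 20.15) did not overlap. Neither did those of Esrra (385 to 507) and Tfam (321.5 to 356). When length was taken from the longest protein-coding transcript, Esrra (789) passed Ncor1 (682) and Nrip1 (201) passed Ppargc1a (195), in normalized reads per kb.

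**Figure D1:**
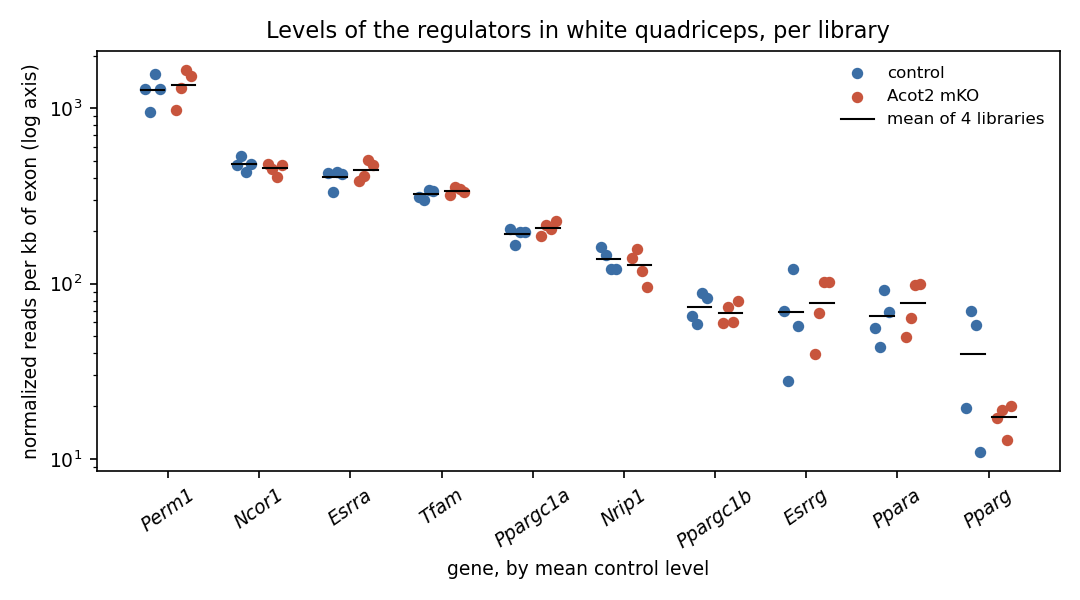
Normalized reads per kb of exon (log axis) for the 10 regulators, ordered by mean control level, with 1 point per library and a line at the mean of 4 libraries. Perm1 stands at 1279 per kb in control and Pparg at 39.6, and the 4 control points of Pparg are spread far wider than its 4 Acot2 mKO points.

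Related members were also compared within each library. Ppargc1a exceeded Ppargc1b in all 8 libraries, by 2.23-fold to 3.14-fold in control animals and 2.86-fold to 3.36-fold in Acot2 mKO animals, per kb. Esrra exceeded Esrrg by 3.59-fold to 12.01-fold in control animals and 4.67-fold to 9.73-fold in Acot2 mKO animals. Ppara was at 0.628 to 6.26 times Pparg in control animals and at 2.89 to 7.67 times in Acot2 mKO animals. In control replicate 2, Pparg was the higher of the pair. The 2 groups overlapped for all 3 ratios.

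None of the 10 regulators passed the test between Acot2 mKO and control muscle. Each had an adjusted p = 0.9995 in limma, with Benjamini-Hochberg adjustment over 13638 genes, and none reached an unadjusted p below 0.05. Over all genes tested, 0.0147% passed the threshold of 0.05 on the adjusted p (0.00733% higher in Acot2 mKO muscle, 0.00733% lower) and 2.91% had an unadjusted p under 0.05. The ranges of the 2 groups overlapped for all 10 members, while 1.92% of all tested genes had groups that did not overlap. The log2 fold change, on the scale of log2(normalized reads + 1), lay above 0 for 6 members and below 0 for 4. Its median was 0.079 over the members and 0.0049 over all tested genes. The widths of the 95% intervals set what could be seen. For Tfam the interval ran from 0.950 to 1.16 times the control level and for Ncor1 from 0.840 to 1.06 times, whereas for Esrrg it ran from 0.650 to 2.23 times and for Pparg from 0.264 to 1.19 times. The labels name separate animals by number, and p-values measure the spread between these animals.

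**Figure D2:**
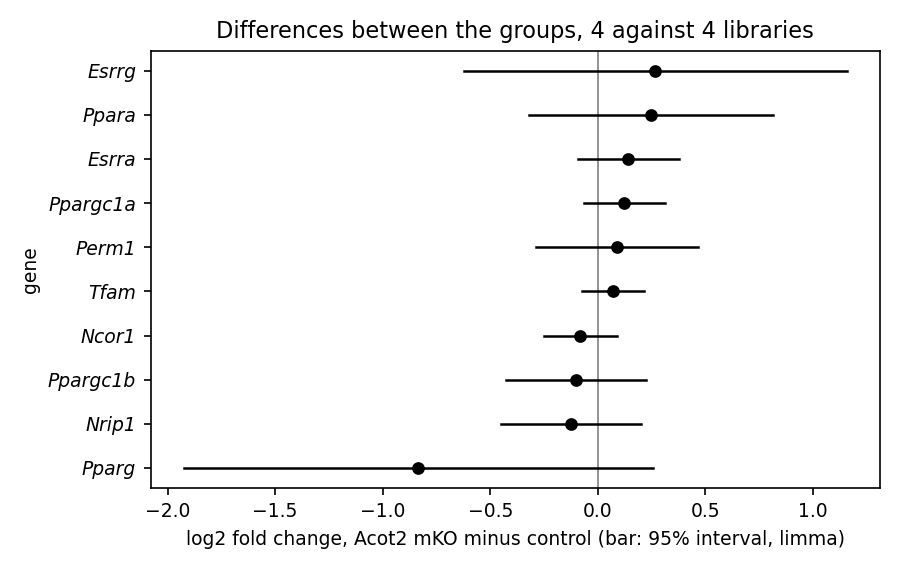
Log2 fold change of each regulator, Acot2 mKO minus control (point), with its 95% interval from limma (bar, 4 against 4 libraries). All 10 intervals cross 0, and those of Pparg (-1.92 to 0.25) and Esrrg (-0.62 to 1.16) are the widest.

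Ppara (NCBI gene 19013, chromosome 15 of GRCm38 in GENCODE M21, 85734983 to 85802819, plus strand), the receptor of the fatty acid oxidation programme, had 213, 168, 352 and 264 normalized reads in control replicates 1 to 4. In Acot2 mKO replicates 1 to 4 it had 189, 244.5, 376 and 381. The high libraries were Acot2 mKO replicates 4 and 3 and control replicate 3, and the low ones control replicate 2 and Acot2 mKO replicate 1, so both groups held high and low animals. Group means were 249 ± 79.1 in control animals and 298 ± 95.9 in Acot2 mKO animals (SD, n = 4 each), a log2 difference of 0.25 (SE 0.26). Its spread over the 8 libraries (SD 0.46 on the log2 scale) was larger than that of 84.3% of tested genes. The 8 libraries stood in the same order by Ppara as by the summed level of the 11 slow fibre markers, which ran from 2483 to 5049.7 normalized reads in control animals and from 2549.7 to 22234 in Acot2 mKO animals. Atp2a2, the slow calcium pump, and Myh7, the slow myosin, were the most abundant of these markers by mean, and 1 of the 11 was at 0 in at least 1 library. Myh7 had only 7.83 to 40.1 normalized reads in control animals, where Atp2a2 had 1575 to 1728. Csrp3 (2.24 to 1261) and Myoz2 (7.83 to 869) varied far more there. The order of the control libraries by the sum therefore rested on markers other than Myh7. In Acot2 mKO replicates 1 to 4 Myh7 had 11.8, 35.5, 2133 and 7430. All 11 markers had a log2 fold change above 0 (median 1.52), as did 51.7% of all tested genes. Of the 11, 1 had an unadjusted p under 0.05 in limma, against 2.91% of all tested genes, and none passed the threshold. Of 120 orders compared (10 regulators by 12 marker lists) that of Ppara and the slow fibre sum was the only full match. It was noticed after the values were seen, and the part of the slow fibre genes in the Ppara values was not tested. With 1 library left out the log2 difference of Ppara ran from 0.076 (without control replicate 2) to 0.44 (without Acot2 mKO replicate 1). It was 0.43 without control replicate 3, 0.12 without Acot2 mKO replicate 3, 0.11 without Acot2 mKO replicate 4 and -0.16 without both of the latter.

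The genes whose profile over the 8 libraries was most like that of Ppara were Cdipt, Acaa2 and Acadvl. Likeness was the root-mean-square difference of the profiles after each was centred and scaled to an SD of 1, so that 0 is identity, and it was 0.13 for Cdipt, 0.14 for Acaa2 and 0.15 for Acadvl among 9676 genes. The scaling removes the size of the spread, so a nearly flat gene can be among the nearest. Cdipt ran only from 623 to 734 normalized reads over the 8 libraries, while Ppara ran from 168 to 381. Acaa2, the last enzyme of the beta-oxidation spiral, had 2251, 1754, 3819 and 2948 normalized reads in control animals and 2079, 2505, 4068 and 3681 in Acot2 mKO animals. Acadvl, which opens the spiral for very long chains, had 6776, 5435, 9217 and 7151 in control animals and 6015, 7001, 9662 and 8998 in Acot2 mKO animals. Both were low in control replicate 2 and high in control replicate 3 and Acot2 mKO replicates 3 and 4, as Ppara was. This follows from their choice by likeness to Ppara and is no separate result. Among the regulators themselves, Perm1 (0.32) and Esrrg (0.37) were nearest to Ppara, and Nrip1 (1.76) and Ncor1 (1.74) were farthest.

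Pparg (NCBI gene 19016, chromosome 6, 115360951 to 115490399, plus strand), the fat cell receptor, was the least abundant member and varied most. It had 57.3, 206, 172 and 32.5 normalized reads in control replicates 1 to 4 and 50.5, 56.2, 37.7 and 59.5 in Acot2 mKO replicates 1 to 4. Control replicates 2 and 3 lay above every other library, while the other 2 controls lay within or below the range of Acot2 mKO muscle. The means were 117 ± 84.9 in control animals and 50.98 ± 9.61 in Acot2 mKO animals (SD, n = 4 each), and the log2 difference was -0.83 (SE 0.50). Its SD of 0.96 on the log2 scale exceeded that of 97.8% of tested genes. The summed level of the 10 adipocyte markers moved alongside, with 4236, 21903, 10001.0 and 2579.9 normalized reads in control animals and 3099, 2605, 3466 and 3503 in Acot2 mKO animals, and no marker was at 0 in any library. Fabp4, a fatty acid binding protein, had 2350.4, 6176, 3222 and 1985 in control libraries, and the adipokine Adipoq 224, 1738, 688 and 64.9. Where the sum was low, most of it was Fabp4, with 1985 of 2579.9 in control replicate 4 and 2143 of 2605 in Acot2 mKO replicate 2. A low sum therefore says little about fat cells. All 10 markers had a log2 fold change below 0. Of these, 5 had an unadjusted p under 0.05 in limma, against 2.91% of all tested genes, and none passed the threshold. In pieces of tissue, the number of fat cells and the RNA per fat cell cannot be told apart. The part of fat cell RNA in the Pparg values was not tested. The difference was -0.44 without control replicate 2, -0.53 without control replicate 3 and -1.32 without control replicate 4. Without control replicates 2 and 3 the log2 difference of Pparg was 0.21 (SE 0.31). Those were its highest libraries, so the direction of this shift followed from their choice. The nearest profiles were Brf2, a subunit of the RNA polymerase III machinery (0.24), Agpat9, an acyltransferase of triacylglycerol synthesis (0.25), and Glb1l2 (0.26). Brf2 itself varied little, from 152 to 193 normalized reads.

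**Figure D3:**
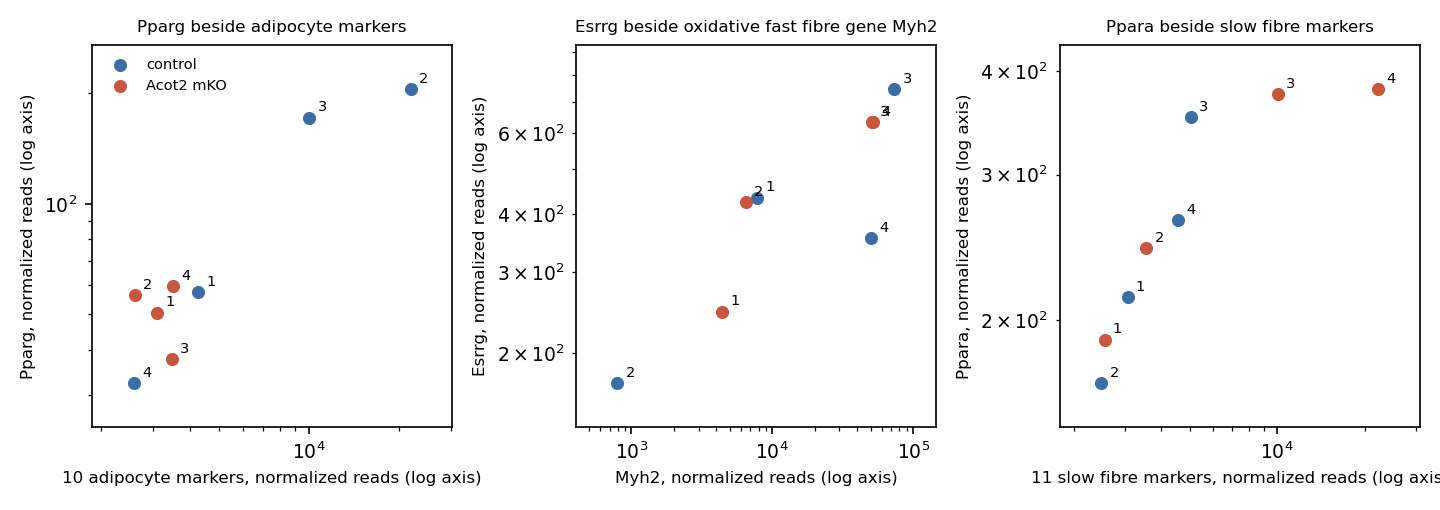
Normalized reads per library (log axes, numbers are replicates) of Pparg against the sum of 10 adipocyte markers, of Esrrg against Myh2, and of Ppara against the sum of 11 slow fibre markers. Control replicates 2 and 3 stand apart for Pparg and adipocyte markers, and Ppara orders the 8 libraries as the slow fibre markers do.

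The ERRs differed in level and in spread. Esrra (NCBI gene 26379, chromosome 19, 6910977 to 6921813, minus strand), the more abundant receptor, had 1868, 1463, 1896 and 1846 normalized reads in control replicates 1 to 4 and 1689.5, 1799.6, 2226 and 2092 in Acot2 mKO replicates 1 to 4. Acot2 mKO replicates 3 and 4 were the highest and control replicate 2 the lowest. The means of 1768 ± 205 in control animals and 1952 ± 249 in Acot2 mKO animals (SD, n = 4 each) gave a log2 difference of 0.14 (SE 0.11). This was 0.053 without control replicate 2, 0.075 without Acot2 mKO replicate 3, 0.21 without Acot2 mKO replicate 1 and -0.012 without Acot2 mKO replicates 3 and 4. Esrrg (NCBI gene 26381, chromosome 1, 187608791 to 188214885, plus strand), which is most abundant in oxidative muscle and heart, had 434.5, 172, 748 and 355 in control animals and 246, 424, 633 and 633 in Acot2 mKO animals. The control range held the whole Acot2 mKO range, from the lowest library (control replicate 2) to the highest (control replicate 3). The means were 427 ± 240.2 and 484 ± 187 (SD, n = 4 each), the log2 difference was 0.27 (SE 0.40), and its SD of 0.72 exceeded that of 94.6% of tested genes. The difference was -0.11 without control replicate 2, 0.60 without control replicate 3, 0.56 without Acot2 mKO replicate 1 and 0.11 without either Acot2 mKO replicate 3 or replicate 4. Without both of these it was -0.22.

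Myh2 moved with Esrrg. It had 7832, 797, 73690.0 and 50366 normalized reads in control animals and 4408, 6512, 50678 and 51585 in Acot2 mKO animals. Libraries with the 3 highest Esrrg levels had the 3 highest Myh2 levels, and the 2 lowest were likewise shared. Control replicate 4 departed from this, with high Myh2 and an Esrrg level (355) below the control mean, and the part of Myh2-rich fibres in the Esrrg values was not tested. The 3 highest and 2 lowest libraries by Esrrg were also those of Ppara, Esrra and Perm1, so the pattern was not particular to Esrrg. The profile nearest to Esrrg among 9676 genes was that of Acot11, a cytosolic thioesterase (0.066), with 316, 182, 403 and 277.0 normalized reads in control animals and 227, 312, 382.5 and 387 in Acot2 mKO animals. Dnajc30, a mitochondrial J-domain protein (0.11), and Tmem181a (0.18) came next, and Perm1 (0.24) held place 13. Dnajc30 itself varied little, from 323 to 390 normalized reads. Esrrb, the remaining ERR, was scarce, with 10.1 to 87.9 normalized reads per library.

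Perm1 (NCBI gene 74183, chromosome 4, 156215868 to 156221307, plus strand), the muscle regulator that acts downstream of PGC-1 and the ERRs, had 5055, 3730.1, 6133 and 5045 normalized reads in control replicates 1 to 4. In Acot2 mKO replicates 1 to 4 it had 3793, 5105, 6465 and 5937. Control replicate 2 and Acot2 mKO replicate 1 were low, and Acot2 mKO replicates 3 and 4 and control replicate 3 were high, as for Esrrg. The means were 4991 ± 983 in control animals and 5325 ± 1165 in Acot2 mKO animals (SD, n = 4 each), with a log2 difference of 0.087 (SE 0.17). This was -0.045 without control replicate 2, -0.015 without Acot2 mKO replicate 3, 0.026 without Acot2 mKO replicate 4 and -0.16 without both of the latter. It was 0.24 without Acot2 mKO replicate 1 and 0.19 without control replicate 3. Ppara, Esrra, Esrrg and Perm1 thus shared their lowest pair of libraries, control replicate 2 and Acot2 mKO replicate 1. Control replicate 3 and Acot2 mKO replicates 3 and 4 were the highest 3 for each of them.

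Promoter sequence is shown for Perm1 and Esrra, which shared their lowest and highest libraries, and for Ppargc1a, the coactivator that acts on both. A site in Tfam and another in Ppara are added because each is the sole match of its motif in the windows of the 9 members searched. Ppargc1b was not searched. Sequences are from RefSeq on GRCm38.p6, 5′ to 3′ on the gene's strand. Those of Perm1, Esrra and Ppargc1a end before the start of the GENCODE gene, and those of Tfam and Ppara lie before a RefSeq start but inside the longer GENCODE gene. The Perm1 stretch lies at chr4:156215677-156215867 on the plus strand, and its capitals mark the nuclear receptor core motif AGGTCA (here on the other strand) and an E-box (CANNTG), the letters bound by myogenic factors. The Esrra stretch lies at chr19:6921814-6922058 and the Ppargc1a stretch at chr5:51567727-51567975, both on the minus strand, with E-boxes in capitals. The Tfam site lies at chr10:71238073-71238102 on the minus strand and the Ppara site at chr15:85735735-85735764 on the plus strand, each within 30 bases, with the GABP and the NRF-1 motif in capitals.
Perm1: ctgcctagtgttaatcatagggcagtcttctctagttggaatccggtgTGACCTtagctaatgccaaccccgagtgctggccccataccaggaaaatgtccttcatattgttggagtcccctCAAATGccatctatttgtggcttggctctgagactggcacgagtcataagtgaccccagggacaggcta
Esrra: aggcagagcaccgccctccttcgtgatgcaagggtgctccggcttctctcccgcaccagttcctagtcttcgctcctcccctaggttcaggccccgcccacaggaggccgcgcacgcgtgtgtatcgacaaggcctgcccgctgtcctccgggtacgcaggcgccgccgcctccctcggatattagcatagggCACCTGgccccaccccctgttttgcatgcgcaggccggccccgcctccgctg
Ppargc1a: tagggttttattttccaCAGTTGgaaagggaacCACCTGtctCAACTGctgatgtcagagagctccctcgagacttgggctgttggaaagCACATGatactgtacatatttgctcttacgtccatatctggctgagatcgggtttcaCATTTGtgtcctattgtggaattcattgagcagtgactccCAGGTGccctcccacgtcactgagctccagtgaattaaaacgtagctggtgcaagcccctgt
Tfam: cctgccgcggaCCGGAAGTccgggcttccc
Ppara: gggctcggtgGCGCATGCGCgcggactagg

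Motifs were searched on both strands in windows of 250 bases before to 50 after each start. AGGTCA occurred in 16.3% of 32851 windows, and in 3 of the 16 windows of 9 members (the Perm1 window and 2 of Pparg). E-boxes occurred in 72.3% of all windows and in 10 of the 16. The ERR element TNAAGGTCA (1.28% of all windows) and the PPAR direct repeat (0.381%), both of which contain or overlap the core motif, occurred in none of the 16. Other strings searched and found in no member window were TCAAGGTCA (0.423% of all windows), a stricter PPAR direct repeat (0.0396%), CGGAAGTG (3.44%), CACGTG (7.15%) and TGACGTCA (1.79%). TATAAA (13.6%) and TGACG (20.8%) each occurred in 2 of the 16 windows, and the GC box GGGCGG (35.7%) in 10. A TGACG match inside the Ppargc1a stretch shown, and GC boxes inside the Esrra stretch shown, are left in small letters. The Perm1 and Esrra windows each hold a further E-box nearer the start, outside the stretch shown. The motifs shown were chosen after their matches were seen. A match is a description of letters, not a measured binding site, and no match says only that the letters are not in the window.

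Ppargc1a (NCBI gene 19017, chromosome 5, 51454250 to 51567726, minus strand), the exercise-responsive coactivator of mitochondrial biogenesis, had 1358, 1088, 1293 and 1304 normalized reads in control replicates 1 to 4 and 1232, 1414.5, 1344 and 1498 in Acot2 mKO replicates 1 to 4. Control replicate 2 was the lowest library, and Acot2 mKO replicates 4 and 2 the highest. The means were 1261 ± 119 and 1372 ± 112 (SD, n = 4 each), a log2 difference of 0.12 (SE 0.085). It was above 0 under every alternative run, from 0.041 (without control replicates 2 and 3) to 0.17, and never past the threshold. It was 0.080 without Acot2 mKO replicate 4 and 0.054 without control replicate 2. Ppargc1b (NCBI gene 170826, chromosome 18, 61298136 to 61400431, minus strand), its paralogue, had 262, 234, 350.5 and 329 in control animals and 238, 292, 242 and 317 in Acot2 mKO animals. The 2 highest libraries were controls and so was the lowest. The means of 294 ± 55.0 and 272 ± 38.4 (SD, n = 4 each) differed by -0.10 (SE 0.15) on the log2 scale. This was -0.0092 without control replicate 3, -0.040 without either control replicate 4 or Acot2 mKO replicate 1, and -0.048 without Acot2 mKO replicate 3. It was -0.18 without Acot2 mKO replicate 4 and -0.20 without control replicate 2.

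Tfam (NCBI gene 21780, chromosome 10, 71225464 to 71238280, minus strand) was the steadiest member. It had 1383, 1333, 1524 and 1502 normalized reads in control replicates 1 to 4 and 1427, 1581, 1542 and 1478 in Acot2 mKO replicates 1 to 4, and only 12.2% of tested genes had a smaller SD over the 8 libraries. The highest library exceeded the lowest by 1.19-fold. The means were 1436 ± 92.4 and 1507 ± 68.1 (SD, n = 4 each), a log2 difference of 0.071 (SE 0.066), which ran from 0.036 (without control replicate 2) to 0.101 (without control replicate 3) with 1 library left out. GABP and NRF-1 are the factors known for driving Tfam in step with PGC-1. The letters CCGGAAGT, bound by GABP, occurred in 3.89% of all windows, and in 1 of the 16 member windows, that of Tfam. The NRF-1 palindrome (4.60% of all windows) occurred in 1 of the 16, a window of Ppara.

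Nrip1 (NCBI gene 268903, chromosome 16, 76287400 to 76373827, minus strand), which restrains oxidative genes in muscle, had 1866, 1676.5, 1388 and 1386 normalized reads in control replicates 1 to 4 and 1600.3, 1806, 1355 and 1092 in Acot2 mKO replicates 1 to 4. Its lowest libraries were Acot2 mKO replicates 4 and 3, the 2 with the highest slow fibre markers and the highest Ppara. The means were 1579 ± 235 and 1463 ± 309 (SD, n = 4 each), with a log2 difference of -0.12 (SE 0.15), which was 0.0093 without Acot2 mKO replicate 4 and 0.12 without replicates 3 and 4. The difference was -0.23 without Acot2 mKO replicate 2 and -0.039 without control replicate 1. Ncor1 (NCBI gene 20185, chromosome 11, 62316426 to 62458541, minus strand), the platform of the Hdac3 corepressor complex, had 6085, 6849, 5527 and 6186 in control animals and 6147, 5804, 5203 and 6122 in Acot2 mKO animals. Control replicate 2 was the highest and Acot2 mKO replicate 3 the lowest, and the means of 6162 ± 542 and 5819 ± 439 (SD, n = 4 each) gave a log2 difference of -0.082 (SE 0.078). This was -0.029 without either control replicate 2 or Acot2 mKO replicate 3, and -0.13 without control replicate 3.

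**Figure D4:**
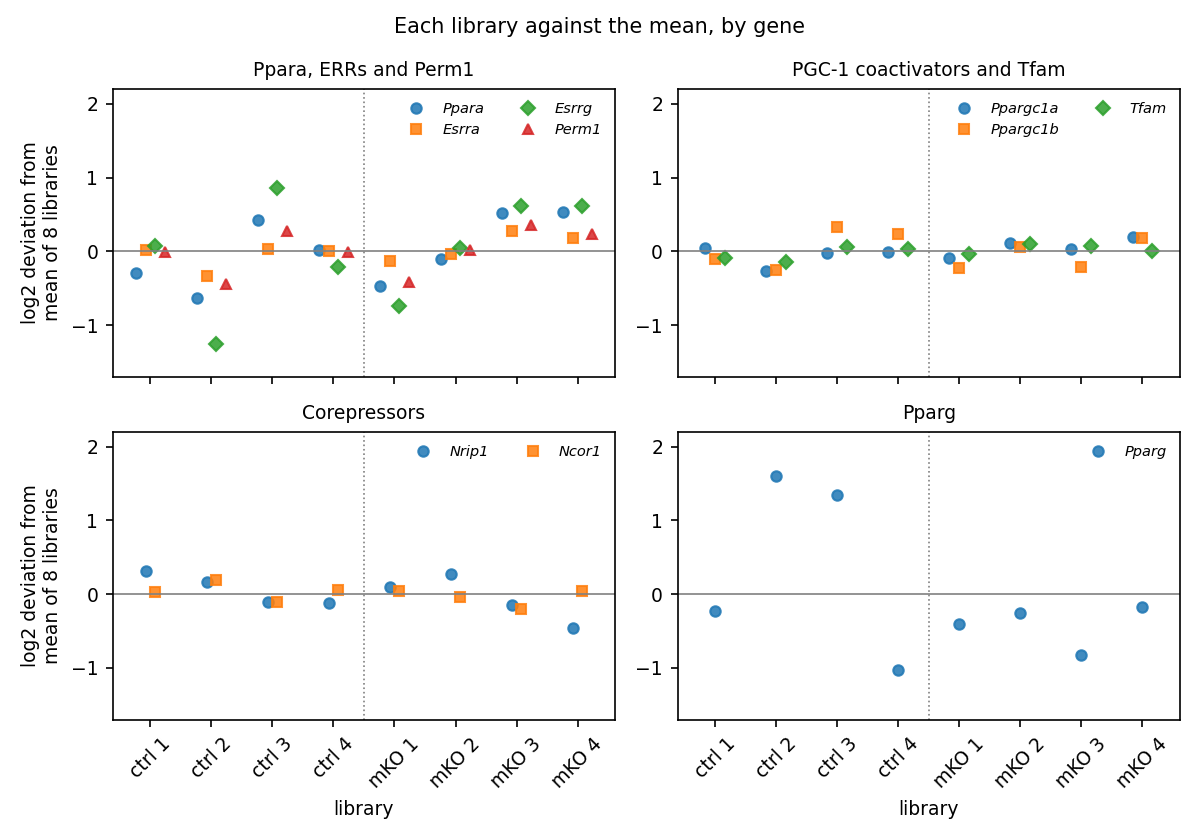
Log2 deviation of each library from the mean of all 8, for 4 sets of regulators (a symbol per gene, dotted line between control and Acot2 mKO libraries). Control replicate 2 lies lowest for Ppara, Esrra, Esrrg and Perm1 (-1.25 for Esrrg), while Pparg is highest there (1.60).

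Control replicate 2 was the lowest of the 8 libraries for 7 of the 10 regulators and the highest for Pparg and Ncor1. It held the least Myh2 and the lowest slow fibre sum, and the highest adipocyte sum and fast glycolytic sum. Acot2 mKO replicate 1, the next lowest for 6 of those 7 (not Tfam), also had the next lowest Myh2 and slow fibre sum. The adipocyte sum was 3099 normalized reads in Acot2 mKO replicate 1 and 21903 in control replicate 2. Control replicate 3 was among the 3 highest libraries for 7 of the regulators, as was Acot2 mKO replicate 4. How often each library is lowest or highest over all tested genes was not counted, so these counts cannot be called particular to the regulators. The part of fibre makeup and of fat content in the regulator values was not tested.

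Targets of the regulators did not pass either. Of 25 tested genes in the list of PGC-1 and ERR targets of oxidative metabolism, 23 had a log2 fold change above 0 (92.0%, against 51.7% of all tested genes), with a median of 0.11, and none passed in either direction or reached an unadjusted p below 0.05 in limma. The angiogenic factor Vegfa had 2579 ± 284 normalized reads in control animals and 2893 ± 378 in Acot2 mKO animals, the complex I subunit Ndufs1 13183 ± 1648 against 14553 ± 2233, the superoxide dismutase Sod2 8375 ± 746 against 9088 ± 1109 and the complex III subunit Uqcrb 6696 ± 599 against 7166 ± 602 (SD, n = 4 each). Averaged over the list, control replicate 2 stood 0.40 below the mean of the 8 libraries on the log2 scale (-0.40) and Acot2 mKO replicate 1 at -0.20, while Acot2 mKO replicate 3 stood at 0.29 and control replicate 3 at 0.21. Without control replicate 2 the median was 0.0059, without Acot2 mKO replicate 3 it was 0.028, and without Acot2 mKO replicates 3 and 4 it was -0.027. It was 0.17 without either control replicate 3 or Acot2 mKO replicate 1.

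PPAR targets of fatty acid use had 28 tested genes of 30, 17 above and 11 below 0, with a median of 0.089 and none past the threshold or with an unadjusted p under 0.05 in limma. Vnn1 and Fgf21 had too few reads. Angptl4, a secreted inhibitor of lipoprotein lipase, had 36.2, 258, 122 and 20.6 normalized reads in control animals and 21.9, 17.1, 54.8 and 21.96 in Acot2 mKO animals. It was high in control replicates 2 and 3, the libraries high in Pparg and adipocyte markers. Eci1, which shifts double bonds for beta-oxidation, had 1722 ± 252 against 1923 ± 283 (control against Acot2 mKO), Mlycd, which breaks down malonyl-CoA, 1413 ± 230.3 against 1592 ± 87.1, while Ucp3, a mitochondrial uncoupling protein, had 1807 ± 413 against 1555 ± 279.9 (SD, n = 4 each). The median was 0.015 without control replicate 2, 0.017 without Acot2 mKO replicate 3, 0.16 without control replicate 3, 0.15 without Acot2 mKO replicate 1 and -0.098 without Acot2 mKO replicates 3 and 4.

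No partner of the regulators passed. Retinoid X receptors and coactivators, a list that also holds Esrrb, Mef2c and Mef2d, had 5 of 18 genes above and 13 below 0 (median -0.050). Rxrg, the muscle-enriched retinoid X receptor, had 0.10 (SE 0.081), the arginine methyltransferases Carm1 and Prmt1 had -0.19 (SE 0.14) and -0.11 (SE 0.080), and the muscle transcription factor Mef2c 0.087 (SE 0.069). Corepressor partners had 4 of 10 above 0 (median -0.014), with Nr1d2 at 0.11, Gps2 at 0.085, Ctbp1 at 0.067 and Nr1d1 at -0.079. Signals that act on PGC-1 had 8 of 15 above 0 (median 0.0036), and the 4 with the smallest p were Creb1 (0.11), Prkaa1, a catalytic subunit of AMP-activated kinase (0.13), Fbxw7 (0.11) and Rnf34 (0.11). Genes that maintain and express the mitochondrial genome had 9 of 15 above 0 (median 0.011), with the transcription factor Tfb2m at 0.14 (SE 0.073), Mterf4 at 0.16 (SE 0.11), Gabpa at 0.079 and Mterf3 at 0.086. With 1 library left out, the median ran from -0.081 (without Acot2 mKO replicate 2) to -0.0042 (without Acot2 mKO replicate 3) for retinoid X receptors and coactivators, and was -0.020 without control replicate 2. It ran from -0.065 (without control replicate 4) to 0.043 (without control replicate 1) for corepressor partners, and lay above 0 also without control replicate 2 (0.010) or Acot2 mKO replicate 4 (0.030). For signals it ran from -0.021 (without control replicate 3) to 0.055 (without Acot2 mKO replicate 4), and for mitochondrial genome genes from 0.0049 (without control replicate 4) to 0.045 (without control replicate 2). No gene of these 4 lists passed or reached an unadjusted p below 0.05 in limma. The median over all tested genes was 0.0049.

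**Figure D5:**
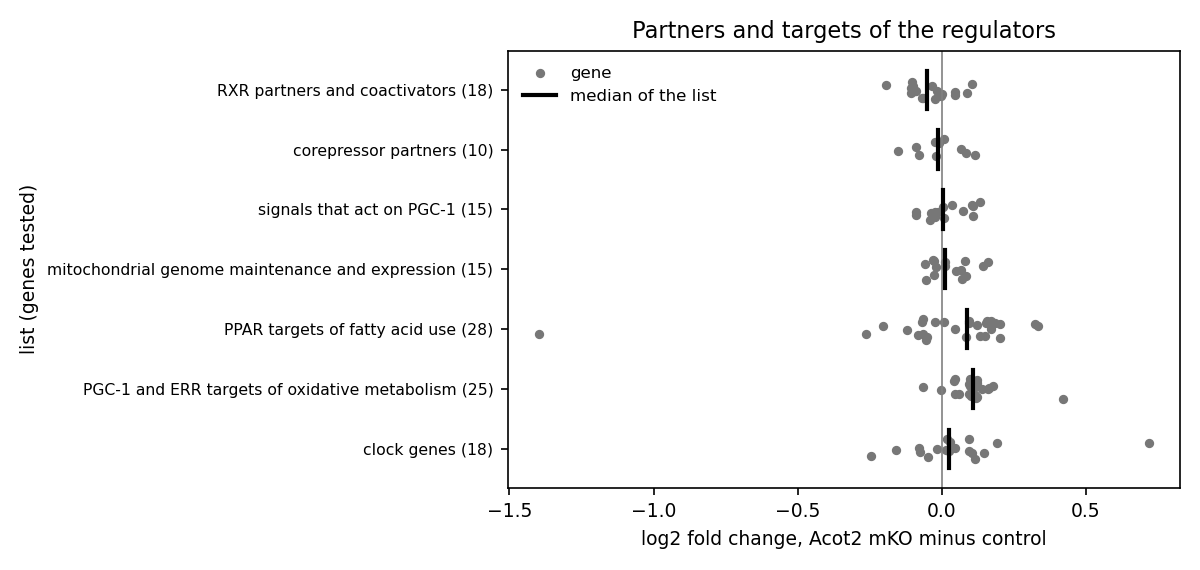
Log2 fold change, Acot2 mKO minus control, of each tested gene (points, jittered vertically) in 7 lists of partners, targets and clock genes, with the median of each list (bar). The medians lie between -0.050 and 0.11, and Angptl4 is the point at -1.40 among the PPAR targets.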

How the data were processed

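RNA-seq of white quadriceps was analysed in 4 control and 4 Acot2 mKO mice. Per the submitters' processing notes, the tools were FastQC, cutadapt, STAR, HTSeq and DESeq2 and the build was GRCm38. Their roles and versions, and the gene annotation, are not given in the sources used here. A stranded kit was used, per the labels' protocols. The deposited values are on a log2 scale, log2(x + 1), and x stands for reads scaled by a library factor. The values themselves show this: with the log undone, 100% of values below 1000 reads lay within 0.1 of a whole multiple of the worth of 1 read. Totals ran from 30415426 to 48834289 reads per library, and counting error is largest for Pparg (30 to 184 reads).

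The comparison used limma 3.58.1 (R 4.3.3, variance trend, pseudocount 1) on 13638 genes that reached 10 normalized reads in 4 or more libraries. P-values were adjusted by Benjamini-Hochberg, with a threshold of 0.05, and the fit was tested on simulated data. Levels between genes used the union of exons in GENCODE M21. The members and lists were chosen with earlier results of these data known, and lists carry no set test. Named genes were the members, up to 4 genes per partner or target list with the smallest p, and the 3 nearest profiles (mean of at least 100 normalized reads) to each of the 3 most variable members. Of a marker list, the 2 most abundant genes were named. Adipoq, Myh2, Csrp3, Myoz2, Esrrb, the marker orders and the motifs shown were chosen after values were seen. The replicates left out in pairs, control 2 and 3 and Acot2 mKO 3 and 4, are libraries that stood apart in marker genes. Of the lists, Twnk was matched through its older symbol. Acadm and Pdk4 stand in both target lists, and Nr1d1 and Nr1d2 in both the corepressor and the clock list. The replicate was the animal, by its number in the labels, and no 2 libraries of a group matched within sampling noise (chi-square per gene 25.8 to 78.6). Alternatives were pseudocounts of 0.5 and 10, no filter, a filter on a mean of 100 normalized reads (which drops Pparg), TMM scaling, quantile normalization, limma-voom on recovered reads, library weights, a block of adjacent animal numbers, and leaving out replicates.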

Additional observations from a re-analysis of the deposited data

Results flagged for a closer look

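Esrra in control replicate 2, at 1463 normalized reads, lay far from the other 3 controls (1846 to 1896). On the log2 scale, the gap to the nearest control was 0.898 of the range of the group, above Dixon's 95% critical value for 4 samples. It was the only such case among 26 groups examined (10 regulators and 3 ratios in each of 2 groups), and chance flags about 1 in 20 groups. The same library was the lowest of all 8 for 7 of the 10 regulators, and its share over all tested genes was not counted.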

How the results depend on the processing

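None of the 10 regulators passed under any of 19 alternatives, and 2 genes, Acot2 and Kbtbd12, passed under each of them. The smallest adjusted p of a member was 0.8999 and the smallest unadjusted p 0.0066 (Pparg without control replicate 4, limma). With the block of adjacent animal numbers, 0 regulators and 2 genes passed. The labels do not say that adjacent numbers mark a shared litter, and deviations of the 4 adjacent pairs correlated at 0.15, -0.084, 0.19 and -0.081, so the animals were not treated as pairs. Without Acot2 mKO replicates 3 and 4 the log2 difference turned for Ppara (-0.16), Esrra (-0.012), Esrrg (-0.22), Perm1 (-0.16) and Nrip1 (0.12), and without control replicates 2 and 3 for Pparg (0.21). The libraries left out in pairs were among the highest for Ppara, Esrra, Esrrg and Perm1, the lowest for Nrip1 and the highest for Pparg. The direction in which each of these differences moved therefore followed from the choice of libraries. Library weights turned Perm1 (-0.025). Leaving out 1 replicate gave -0.11 to 0.60 for Esrrg, -0.23 to 0.0093 for Nrip1 and -0.045 to 0.24 for Perm1, and turned no other regulator. List medians also moved. Without Acot2 mKO replicates 3 and 4 they were 0.052 for retinoid X receptors and coactivators and 0.063 for signals on PGC-1. Without control replicates 2 and 3 the median for mitochondrial genome genes was 0.047. With 1 replicate left out, that list ran from 0.0049 to 0.045 and signals from -0.021 to 0.055. With length from the longest protein-coding transcript, 6 of 10 regulators kept their place in the abundance order, and with Acot2 mKO libraries 7 did. The cause of these shifts was not tested.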

Other observations

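Clock genes, which are known to act on Ppara and Ppargc1a, were examined because muscle was taken in the morning. Of 18 tested, 12 had a log2 fold change above 0 and 6 below (median 0.026), and none passed or had an unadjusted p under 0.05 in limma. Ciart, a repressor of the clock, had 56.2 ± 47.1 normalized reads in control animals and 81.5 ± 33.4 in Acot2 mKO animals, and Bhlhe41 2013 ± 149.7 against 1817 ± 283 (SD, n = 4 each).

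Markers of other cell types, as sums of normalized reads, overlapped between the groups. Endothelial markers ran from 8514 to 9718 in control animals and from 7316 to 10031 in Acot2 mKO animals, and macrophage markers from 1866 to 2621 against 1292 to 2902. Fibroblast markers ran from 58610.3 to 84853 against 54732 to 99412, smooth muscle and pericyte markers from 16317 to 19409.7 against 13849 to 19885, satellite cell markers from 626 to 733 against 614 to 662, and Schwann cell markers from 912 to 1522 against 764 to 1509. Fast glycolytic markers ran from 5275576 to 6325319 against 4956065 to 6037092. Neutrophil and lymphocyte markers summed to at most 14.1 and 6.49 in any library, and had too few reads to be tested. No marker of the other lists passed the test.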
